A study of Mus musculus with 2 samples.

Results

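The Fc gamma receptor family comprised 7 genes of the 32285 genes in the deposited tables, taken by symbol: *Fcgr1*, *Fcgr2b*, *Fcgr3*, *Fcgr4*, *Fcer1g*, *Fcrls* and *Fcgrt*. All 7 were detected in both libraries. They were followed in single-cell RNA-seq of CD45+ DAPI- leukocytes sorted from mouse brown adipose tissue (BAT), the fat depot that burns lipid to make heat. The comparison asked how leukocytes of BAT differ when adipocytes lose *Pnpla2*, which codes for the lipase ATGL.

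Both groups were male AdipoQ-CreERT2 ATGLfl/fl mice on the C57Bl/6 background, 16 weeks old per the labels. The control group received vehicle and the AdipoΔ/Δ group received tamoxifen, which turns on a Cre driven by the adiponectin promoter of adipocytes. By the labels, the groups thus shared the Cre transgene and the floxed alleles. The text of the study differs from the labels here, since it gives a younger age and at one place names C57BL/6 mice as the source of the control cells, with no mention of these alleles. The labels are followed, and which is right could not be settled. There was 1 library per group, and no source used here says how many mice were pooled into it. Gene deletion, tamoxifen and library therefore cannot be told apart, no difference has a replicate check, and no p-value was computed. The sorted cells hold no adipocytes, so *Pnpla2*, at 37.1 CPM in control and 42.2 CPM in AdipoΔ/Δ leukocytes, does not check the deletion.

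Fc gamma receptors bind the constant part of immunoglobulin G and link antibody to phagocytes. *Fcgr1*, *Fcgr3* and *Fcgr4* code for the activating receptors of the mouse, which signal through the FcR gamma chain made from *Fcer1g*, whereas *Fcgr2b* codes for the inhibitory receptor. *Fcgrt* codes for FcRn, which pairs with beta 2 microglobulin and rescues immunoglobulin G from lysosomes, and *Fcrls* codes for a receptor-like scavenger protein of macrophages and microglia. The product of *Fcgr1*, CD64, is widely used in cytometry to gate macrophages.

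The control library held 2279 kept cells with a median of 3678 UMIs, and the AdipoΔ/Δ library 2016 cells with a median of 3942 UMIs. A UMI (unique molecular identifier) marks 1 captured transcript, and CPM below is UMIs of a gene per 1000000 UMIs of all genes, summed over the cells of a cluster. Intervals are 95% intervals and cover counting error only. *Ptprc*, which codes for CD45, had a UMI in 80.4% of the cells of each library. The libraries shared 4 cell barcodes. Haemoglobin genes summed to 1091 CPM in control and 8.84 CPM in AdipoΔ/Δ cells.

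Clusters were named from marker lists and are called by class and leading gene. Macrophage-like cells made up 147 control cells and 557 AdipoΔ/Δ cells, in 4 clusters. These were matrix macrophage-like (led by *Lyz1*, 49 and 178 cells), M2-like macrophage (*Folr2*, 60 and 137), lipid-associated macrophage-like (*Gpnmb*, 13 and 90) and a shallow macrophage-like cluster without a subset name (*Lpl*, 25 and 152). The M2-like cluster was thus the largest macrophage-like cluster of the control library, and the matrix cluster that of the AdipoΔ/Δ library. The matrix cluster carried little of the general macrophage list of 9 genes, at 1249 and 1075 CPM in control and AdipoΔ/Δ cells against 15194 and 18510 CPM in M2-like cells, and its name rests on its subset list. Its level of the general list was also below that of every monocyte-like cluster in the same library, as given further below. Monocyte-like cells were Ly6C high (*Vcan*, 328 and 148 cells) and Ly6C low, the latter in clusters led by *Gngt2* (200 and 121) and *Cd300e* (238 and 221). The Ly6C low name is weak for the *Gngt2* cluster, whose mean standardized level of that marker list was 1.36, against 2.84 in the *Cd300e* cluster. At a clustering resolution of 0.5 no cluster was led by *Gngt2*, and the Ly6C high cluster held 525 and 266 cells. The study also names a Ly6C int monocyte population.

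*Fcgr2b*, *Fcgr4* and *Fcgr3* lie within 106.3 kb on chromosome 1, at chr1:170958617-170976547 (- strand), chr1:171018920-171029761 (+ strand) and chr1:171051174-171064935 (- strand) of GRCm38. *Fcer1g* lies on the same chromosome at chr1:171229572-171234365. *Fcrls* (chr3:87250758-87263738) and *Fcgr1* (chr3:96282909-96293969) lie on chromosome 3, and *Fcgrt* on chromosome 7 (chr7:45092990-45103851). These 4 genes are on the - strand. Near the 3′ ends, where this assay reads, 1.58% of the 55-base windows of *Fcgr2b* transcripts also occur in *Fcgr3*, and no window of the other members occurs in another gene. Annotated antisense genes overlap *Fcgr2b* (*Gm38204*) and *Fcgrt* (*Gm45669*), and the strand setting of the counting is not given in the sources used here.

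The upstream windows of *Fcgr1* and *Fcgr4* are shown because these 2 receptors divided the monocyte-like clusters, as described next. Each holds the 250 bases before the RefSeq start on GRCm38.p6, read 5′ to 3′ on the strand of the gene, at chr3:96293970-96294219 (- strand) for *Fcgr1* and chr1:171018676-171018925 (+ strand) for *Fcgr4*. Capitals mark matches to GAGGAA, the core bound by the myeloid factor PU.1 and read here on the opposite strand as TTCCTC, and to TTCNNNGAA, the palindrome of STAT factors, both searched on both strands.
Fcgr1: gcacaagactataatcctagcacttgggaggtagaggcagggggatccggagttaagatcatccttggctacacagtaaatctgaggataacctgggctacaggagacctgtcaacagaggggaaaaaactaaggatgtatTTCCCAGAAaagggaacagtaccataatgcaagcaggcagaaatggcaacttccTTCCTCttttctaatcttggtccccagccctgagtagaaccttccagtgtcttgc
Fcgr4: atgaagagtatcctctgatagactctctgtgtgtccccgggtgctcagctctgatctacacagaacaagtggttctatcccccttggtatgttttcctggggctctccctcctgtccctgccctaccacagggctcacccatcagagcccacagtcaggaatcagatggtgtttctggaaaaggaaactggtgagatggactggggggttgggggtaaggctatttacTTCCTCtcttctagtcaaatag
GAGGAA lay 50 to 55 bases upstream of the start in *Fcgr1* and 17 to 22 bases upstream in *Fcgr4*. It occurred in 4 of the 7 members (also *Fcgr3* and *Fcrls*) and in 23.3% of the 32851 RefSeq promoter windows of this length. TTCNNNGAA occurred among the members in *Fcgr1* alone, 101 to 109 bases upstream and apart from GAGGAA, and in 7.02% of all windows. A match is a description of letters, not of binding.

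*Fcgr1*, the high-affinity activating receptor, was found in lipid-associated and M2-like macrophages and in Ly6C high monocyte-like cells, and was nearly missing from matrix macrophage-like cells. In lipid-associated cells it stood at 228 CPM in control (7 UMIs in 13 cells, interval 91.6 to 469.5) and 190.4 CPM in AdipoΔ/Δ cells (166 to 217). In M2-like cells it stood at 82.5 CPM (48.9 to 130.4) and 107 CPM (86.9 to 130.5). In matrix cells it had 0 UMIs in control, which allows up to 10.9 CPM, and 3 UMIs, or 2.18 CPM, in AdipoΔ/Δ cells. The *Fcgr1* levels of the lipid-associated and M2-like AdipoΔ/Δ cells did not overlap in their intervals, and both lay above that of the matrix cells.

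In monocyte-like cells, *Fcgr1* was highest in the Ly6C high cluster, followed by the *Gngt2* and the *Cd300e* cluster, in either library. The Ly6C high cluster had 81.9 CPM (199 UMIs) in control and 159 CPM (177 UMIs) in AdipoΔ/Δ cells, a 1.94-fold higher level (1.58 to 2.39). The *Gngt2* cluster had 40.9 and 103 CPM, a 2.51-fold higher level (1.68 to 3.79). The *Cd300e* cluster had 11.8 and 25.2 CPM, with an interval of the ratio from 0.834 to 5.86 that includes 1. The higher *Fcgr1* level of AdipoΔ/Δ cells in the first pair of clusters was thus larger than the counting error of UMIs. That error leaves out the spread between cells, and no spread between animals is known.

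Cells with a *Fcgr1* UMI followed the same order. They made up 32.0% of control and 43.9% of AdipoΔ/Δ Ly6C high cells, at median depths of 7389.5 and 6877.5 UMIs, against 0.509% and 0% of T cell-like cells. After thinning each cell to 1000 UMIs the shares were 8.12% and 12.5%. The general macrophage list also differed in these clusters, from 1399 to 1993 CPM in the Ly6C high cluster and from 1645 to 3681 CPM in the *Gngt2* cluster, but from 1850 to 1810 CPM in the *Cd300e* cluster. Its part in the *Fcgr1* difference was not tested. Neutrophil-like cells had 1 and 8 UMIs of *Fcgr1* and NK cell-like cells 0 and 1.

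**Figure D1:**
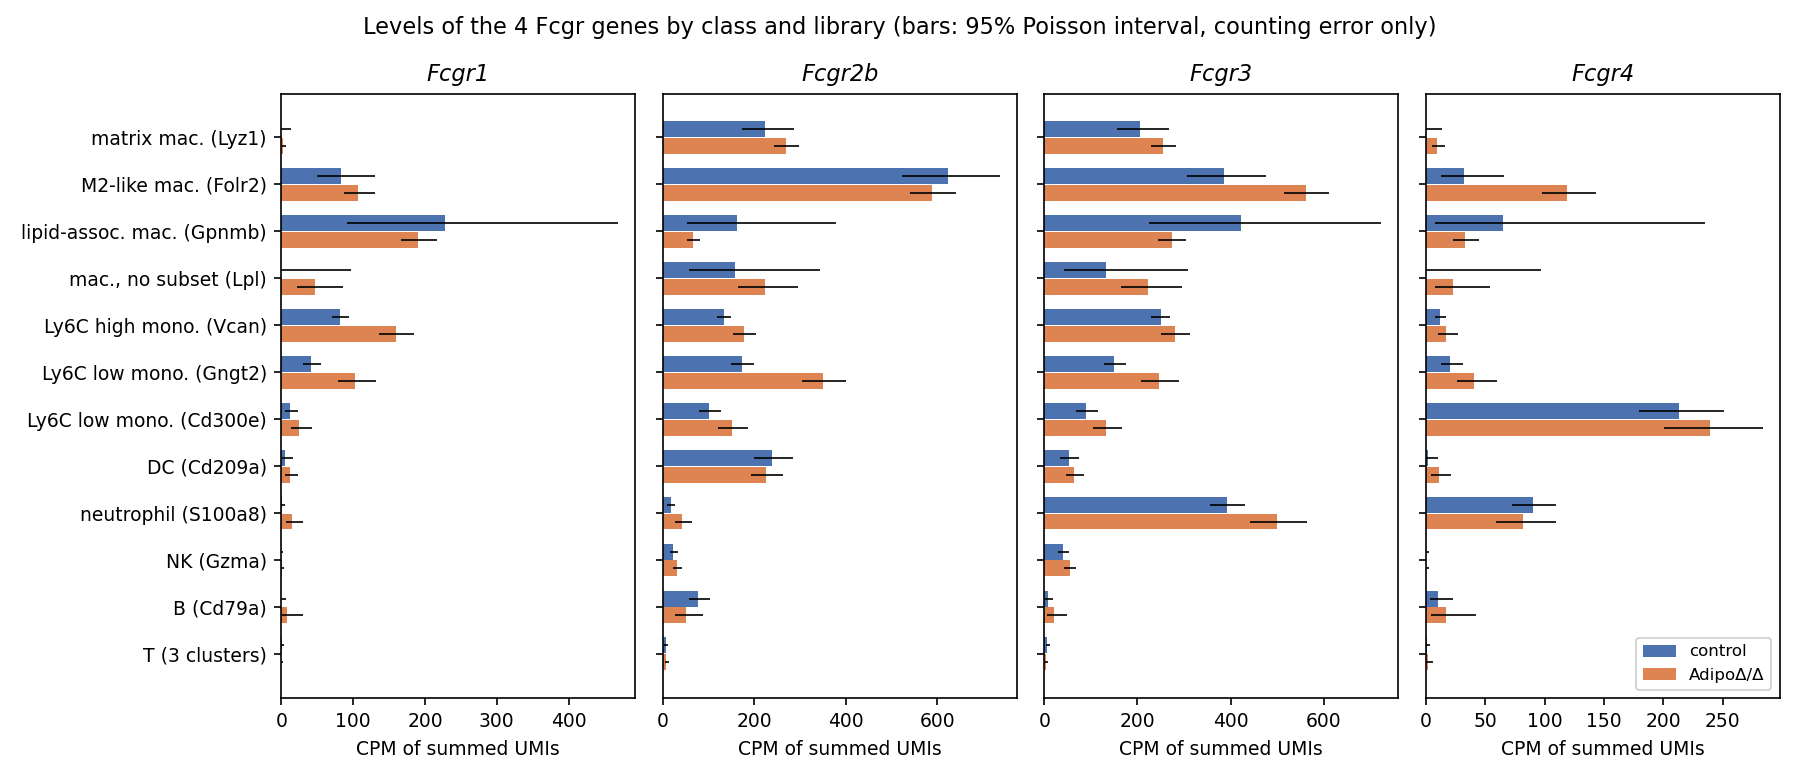
Levels of the 4 Fcgr genes in CPM of summed UMIs (x axis) by cluster or class (y axis), in control (blue) and AdipoΔ/Δ (orange) cells, with bars at the 95% Poisson interval. Fcgr1 stood out in the lipid-associated and Ly6C high clusters, Fcgr2b in M2-like cells, Fcgr3 in M2-like cells, neutrophils and control lipid-associated cells, and Fcgr4 in the Cd300e monocyte cluster.

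*Fcgr3*, the low-affinity activating receptor (CD16), was found in all phagocyte clusters and, at lower levels, in NK cell-like cells. Its level was high in M2-like macrophages, at 385 CPM in control and 561 CPM in AdipoΔ/Δ cells, and in neutrophil-like cells, at 392 and 500.4 CPM. Lipid-associated cells had 423 CPM in control (13 UMIs, 225 to 724) and 273 CPM in AdipoΔ/Δ cells (245 to 305). In control the intervals of these 3 overlap, whereas in AdipoΔ/Δ cells the lipid-associated level lay below the others. The ratio was 1.46 (1.16 to 1.86) in M2-like cells and 1.28 (1.09 to 1.49) in neutrophil-like cells. Neutrophil marker genes summed to 3255 CPM in control and 258 CPM in AdipoΔ/Δ M2-like cells, and their part in the M2-like *Fcgr3* values was not tested. NK cell-like cells had 40.1 and 54.8 CPM, T cell-like cells 6.52 and 3.52 CPM, and 36 cells per library of an unnamed cluster led by *Cd7* had 52.6 and 28.3 CPM. *Fcgr3* UMIs therefore reached beyond phagocytes, at a level above that in T cell-like cells.

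Within monocyte-like cells *Fcgr3* ran with *Fcgr1*, highest in the Ly6C high cluster at 249 and 281 CPM, and lowest in the *Cd300e* cluster at 88.8 and 133 CPM. The Ly6C high ratio of 1.13 (0.978 to 1.29) includes 1. The *Gngt2* cluster differed by 1.63-fold (1.3 to 2.05), from 150.4 to 245 CPM.

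*Fcgr4*, the activating receptor for IgG2 subclasses, had the reverse order among monocyte-like cells. The *Cd300e* cluster had 213 CPM in control and 239.5 CPM in AdipoΔ/Δ cells, the Ly6C high cluster 11.9 and 17.1 CPM, and the *Gngt2* cluster 20.4 and 40.3 CPM. Neutrophil-like cells had 90.0 and 81.5 CPM, and NK cell-like cells no UMI in either library. The *Fcgr4* ratio in the *Cd300e* cluster, 1.12 (0.881 to 1.43), includes 1, as does that in neutrophil-like cells.

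*Fcgr4* differed between libraries in M2-like macrophages. It had 7 UMIs in control cells (32.1 CPM, 12.9 to 66.1) and 109 UMIs in AdipoΔ/Δ cells (119 CPM, 97.8 to 144), a 3.71-fold higher level (1.74 to 9.45). These cells were deeper in the AdipoΔ/Δ library, with a median of 5810 UMIs against 2829, and after thinning to 1000 UMIs a *Fcgr4* UMI was found in 1 of 57 control and 14 of 131 AdipoΔ/Δ cells. The intervals of the 2 CPM values do not overlap, whereas those of the thinned shares do (0.0444% to 9.39% and 5.97% to 17.3%). In the AdipoΔ/Δ library 1 cell held 15 of the 109 UMIs. In matrix cells it had 0 and 13 UMIs, and a fold is not given because the AdipoΔ/Δ level of 9.43 CPM lies under the limit that 0 control UMIs allow.

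*Fcgr2b*, the inhibitory receptor, was highest in M2-like macrophages, at 624 CPM in control (523 to 738) and 589.9 CPM in AdipoΔ/Δ cells (541 to 642). Matrix cells had 224 and 269.9 CPM, and dendritic cell-like cells (led by *Cd209a*) 239.8 and 227 CPM. Between libraries, the ratios in these 3 clusters all had intervals that include 1. Lipid-associated cells had 163 CPM in control (5 UMIs, 52.9 to 379.9) and 65.4 CPM in AdipoΔ/Δ cells (51.7 to 81.7), the lowest AdipoΔ/Δ level among macrophage-like clusters. B cell-like cells, in which *Fcgr2b* is known as the sole Fc gamma receptor, had 77.3 and 49.8 CPM.

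Monocyte-like cells had more *Fcgr2b* in the AdipoΔ/Δ library in each of their clusters. The *Gngt2* cluster differed most, with 174 CPM in control and 349.6 CPM in AdipoΔ/Δ cells, a ratio of 2.01 (1.64 to 2.47). The *Cd300e* cluster differed by 1.5-fold (1.08 to 2.1) and the Ly6C high cluster by 1.33-fold (1.11 to 1.59). The monocyte-like *Gngt2* cluster was thus the one in which *Fcgr1*, *Fcgr2b*, *Fcgr3* and *Fcgr4* were all at least 1.5-fold higher in AdipoΔ/Δ cells.

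Counted over members with at least 20 UMIs in the class over both libraries, 4 of 7 were at least 1.5-fold higher in AdipoΔ/Δ monocyte-like cells (*Fcgr1*, *Fcgr2b*, *Fcgr4* and *Fcrls*) and 0 lower, where 11.1% of all genes tested were higher and 4.26% lower. By cluster, 2 of 7 were higher in Ly6C high cells (all genes 12.1% higher, 5.83% lower), 4 of 6 in the *Gngt2* cluster (13.5% and 12.1%) and 3 of 6 in the *Cd300e* cluster (14.6% and 6.39%), and none lower. In macrophage-like cells 2 of 7 were higher (*Fcgr1* and *Fcgr4*) and 0 lower, against 21.5% and 11.6% of all genes. The 2 stayed higher at a fold of 2 (all genes 9.8%) and with at least 50 UMIs (19.3%). Within M2-like cells 1 of 7 was higher (24.2% of all genes) and within matrix cells 0 of 5 (24% of all genes). Within lipid-associated cells 1 of 7 was higher and 4 were lower, on 13 control cells. Within the *Lpl* cluster 2 of 4 were higher and 0 lower. The shares over all genes are not given for this pair of clusters, so their counts are not read further. At a fold of 2, 1 of 7 was higher in monocyte-like cells (all genes 3.74%), which was *Fcrls*, and 1 of 7 in Ly6C high cells (3.41%), *Fcrls* as well. In the *Gngt2* cluster 2 of 6 (*Fcgr1* and *Fcgr2b*) were higher at this fold (5.13%) and in the *Cd300e* cluster 1 of 6 (*Fcgr1*, 4.28%), where *Fcgr2b* and *Fcgr3* lay just past 1.5. The macrophage-like count at 1.5-fold was near the background of all genes. The counts at that fold in all monocyte-like cells and in the *Gngt2* and *Cd300e* clusters were above it, and some of their members lay below 2-fold. The counts of all monocyte-like cells and of Ly6C high cells include *Fcrls*, which is not read as expression there, as described below. With *Fcrls* set aside, *Fcgr1* was the only member higher in Ly6C high cells, a count near the 12.1% of all genes. No member other than *Fcrls* was past 2-fold in all monocyte-like cells.

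**Figure D2:**
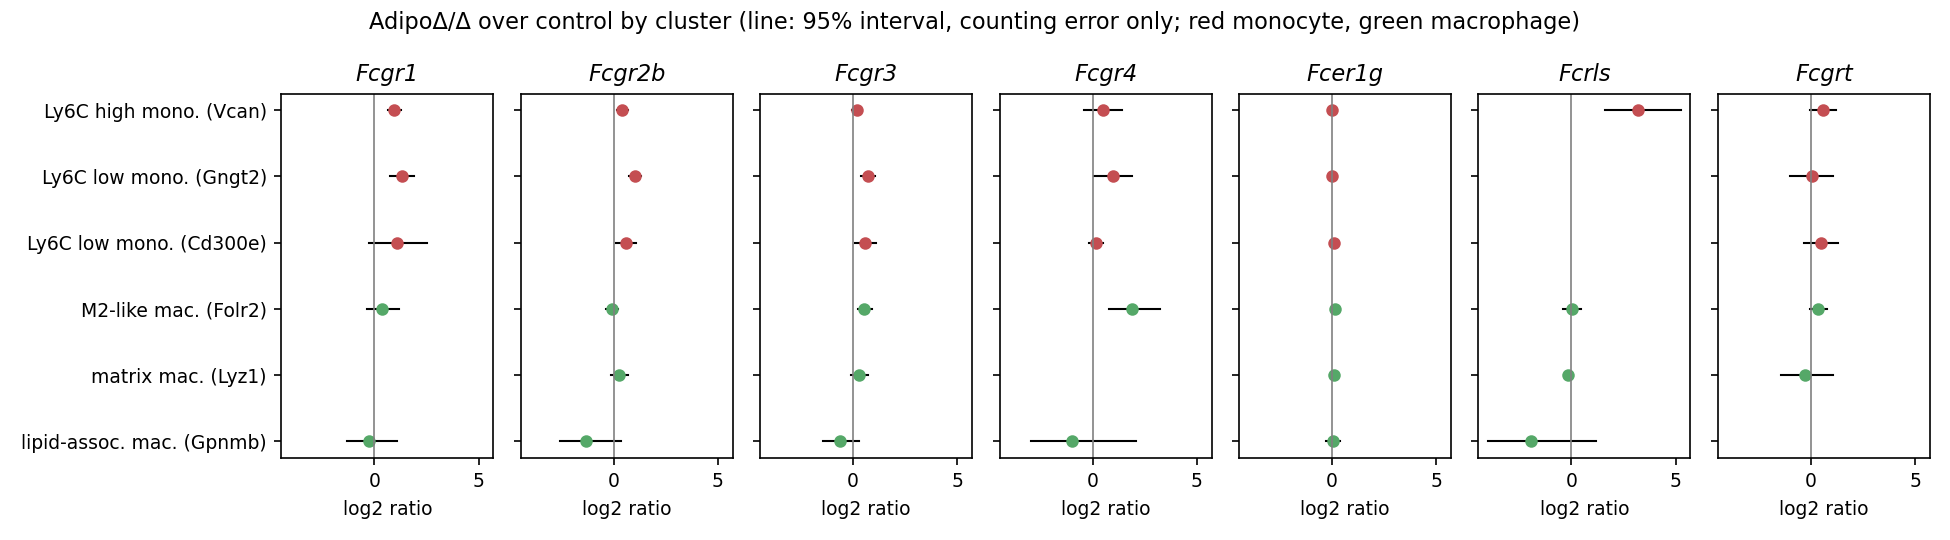
Log2 ratio of the AdipoΔ/Δ over the control level (x axis) for each member (panels) by cluster (y axis), shown where at least 20 UMIs were counted over both libraries and at least 1 in each, with bars at the 95% conditional binomial interval. Points of the 4 Fcgr genes lie right of 0 in the 3 monocyte clusters. Fcer1g points lie close to 0 in the Ly6C high, Cd300e, M2-like and matrix clusters.

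The macrophage-like class as a whole mixes clusters with unlike receptors. Summed over it, *Fcgr1* had 44.4 CPM in control cells and 91.3 CPM in AdipoΔ/Δ cells (log2 ratio 1.04, 0.45 to 1.69), and *Fcgr2b* at 371 and 280.5 CPM (log2 ratio -0.40, -0.62 to -0.18). With both libraries weighted to the same cluster shares, the log2 ratio was -0.0103 for *Fcgr1* and -0.0737 for *Fcgr2b*. *Fcgr4* was at 16.0 and 44.9 CPM (log2 ratio 1.49, 0.53 to 2.64). At equal shares its log2 ratio was 0.76. The class differences of *Fcgr1* and *Fcgr2b* were thus close to 0 at equal shares of the clusters, and that of *Fcgr4* was smaller. These equal-share ratios have no interval. The control lipid-associated level within them rests on 7 UMIs of *Fcgr1*, 5 of *Fcgr2b* and 2 of *Fcgr4* in 13 cells, so they are loosely known. Those 13 cells were also shallow, with a median of 1348 UMIs against 12010.5 in the AdipoΔ/Δ cells of that cluster. Whether cluster shares account for the class differences was not tested.

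The same can be read as the makeup of the 4 Fcgr genes, given as shares of their summed UMIs. In lipid-associated AdipoΔ/Δ cells *Fcgr1* held 33.9% (30.3 to 37.6) and *Fcgr2b* 11.6% (9.31 to 14.3). In matrix AdipoΔ/Δ cells *Fcgr1* held 0.406% and *Fcgr2b* 50.3% (46.7 to 54.0), close to the 52.1% of matrix control cells. The lipid-associated and matrix clusters were thus the most unlike macrophage-like clusters of the AdipoΔ/Δ library in the balance of these receptors. In M2-like cells the share of *Fcgr2b* was 55.5% (49.0 to 61.8) in control and 42.8% (40.1 to 45.6) in AdipoΔ/Δ cells, and these intervals do not overlap. *Fcgr4* held 51.4% in control and 43.6% in AdipoΔ/Δ cells of the *Cd300e* monocyte cluster, *Fcgr3* 78.4% and 78.3% in neutrophil-like cells, and *Fcgr2b* 80.1% and 72.2% in dendritic cell-like cells.

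**Figure D3:**
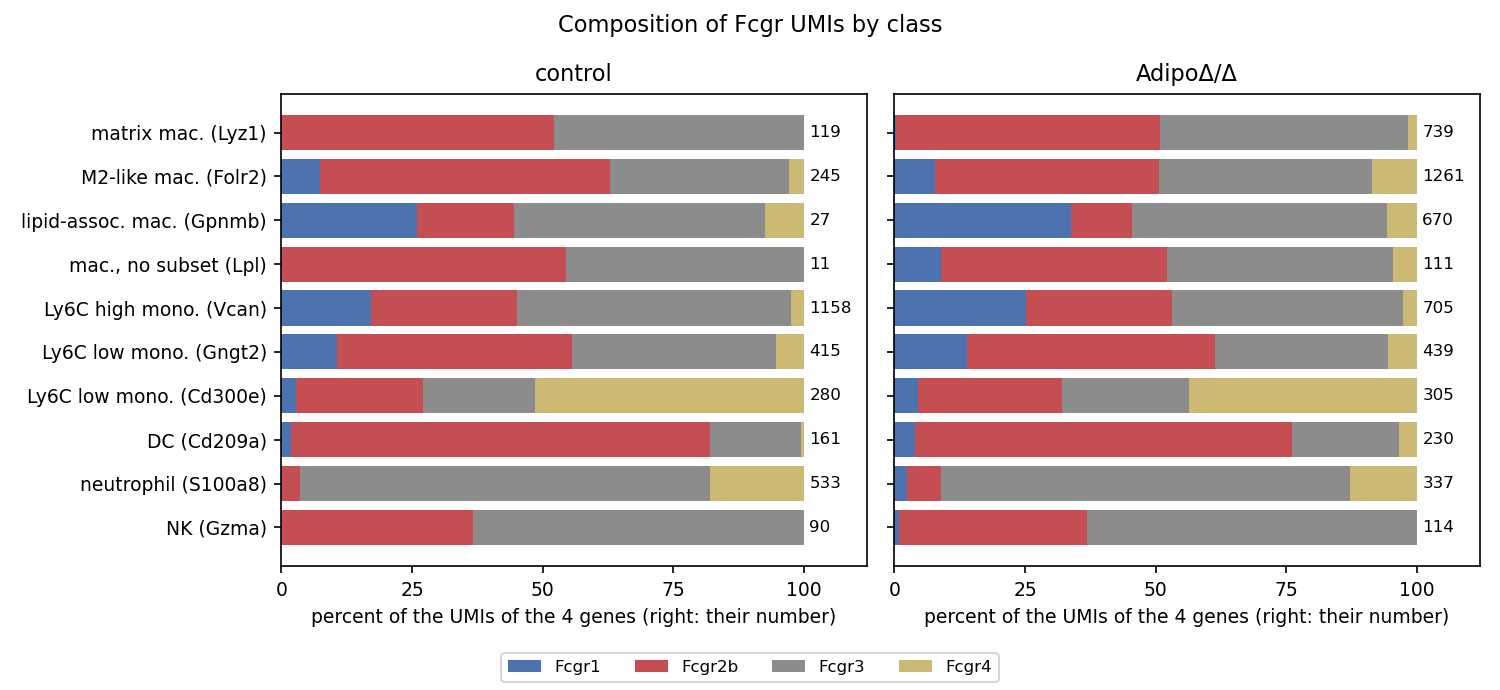
Shares of Fcgr1, Fcgr2b, Fcgr3 and Fcgr4 in their summed UMIs (x axis, percent) by cluster or class and library (y axis). Fcgr1 took 33.9% in lipid-associated AdipoΔ/Δ cells and 0.406% in matrix AdipoΔ/Δ cells, and Fcgr4 took 51.4% in the control cells of the Cd300e monocyte cluster.

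*Fcer1g*, whose gamma chain carries the activating signal, was found in all myeloid and NK cell-like clusters at levels that hardly differed between libraries. It stood at 2517 and 2520.0 CPM in Ly6C high monocyte-like cells, 3286 and 3550.0 CPM in the *Cd300e* cluster, 1972 and 2231 CPM in neutrophil-like cells and 2620.4 and 2699.6 CPM in NK cell-like cells. Matrix cells had 1466 and 1543 CPM and M2-like cells 2494 and 2783 CPM. Ratios in these 6 clusters ran from 1 to 1.13. T cell-like cells had 96.6 and 82.3 CPM and B cell-like cells 155 and 83.0 CPM, so the transcript was far lower in these lymphoid classes. A *Fcer1g* UMI was found in 97.9% of control and 99.3% of AdipoΔ/Δ Ly6C high cells, and in all NK cell-like cells.

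*Fcrls*, the scavenger-like member, marked matrix macrophage-like cells and was among the 10 leading genes of that cluster, although the members were left out of the features used to cluster. It had 970.2 CPM in control and 871 CPM in AdipoΔ/Δ matrix cells, a ratio of 0.898 (0.786 to 1.03). M2-like cells had 284 and 288 CPM, and lipid-associated AdipoΔ/Δ cells 16.8 CPM (20 UMIs). A shallow unnamed cluster led by *Gm26917* (40 and 69 cells) had 0 UMIs in control, which allows up to 67.9 CPM, and 504 CPM in AdipoΔ/Δ cells. *Fcrls* in macrophage-like clusters therefore differed more between clusters than between libraries.

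Dividing cells (led by *Top2a*, 16 and 33 cells) had 35.1 and 167 CPM of *Fcrls*, and dendritic cell-like cells 31.6 and 61.4 CPM. In the monocyte-like, neutrophil-like, NK cell-like and T cell-like classes *Fcrls* was under 20 CPM in both libraries, and its value was higher in the AdipoΔ/Δ library in each. Monocyte-like cells had 9 UMIs (2.15 CPM) in control and 29 UMIs (12.8 CPM) in AdipoΔ/Δ cells, NK cell-like cells 1 and 23 UMIs (0.703 and 17.5 CPM), neutrophil-like cells 3 and 8 UMIs, and T cell-like cells 3 and 7 UMIs (1.78 and 4.92 CPM). After thinning, a *Fcrls* UMI was found in 0.688% of AdipoΔ/Δ monocyte-like, 1.16% of NK cell-like and 1.21% of T cell-like cells. Classes that should lack *Fcrls* showed it too, so the monocyte-like difference is not read as expression. The *Fcrls* level of all kept cells was 34.9 and 156 CPM, and its part in these low values was not tested.

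*Fcgrt*, the gene of FcRn, was highest in M2-like macrophages, with 298 CPM in control and 380.1 CPM in AdipoΔ/Δ cells (ratio 1.28, 0.976 to 1.69). Dendritic cell-like cells followed with 81.8 and 73.7 CPM, and matrix cells had 29.0 and 23.9 CPM. Neutrophil-like cells had 2 UMIs in either library, and NK cell-like cells 1 and 2 UMIs. Its partner *B2m* was found at 3063 and 3433 CPM in M2-like cells, and at 3059 and 3960.5 CPM in all monocyte-like cells.

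**Figure D4:**
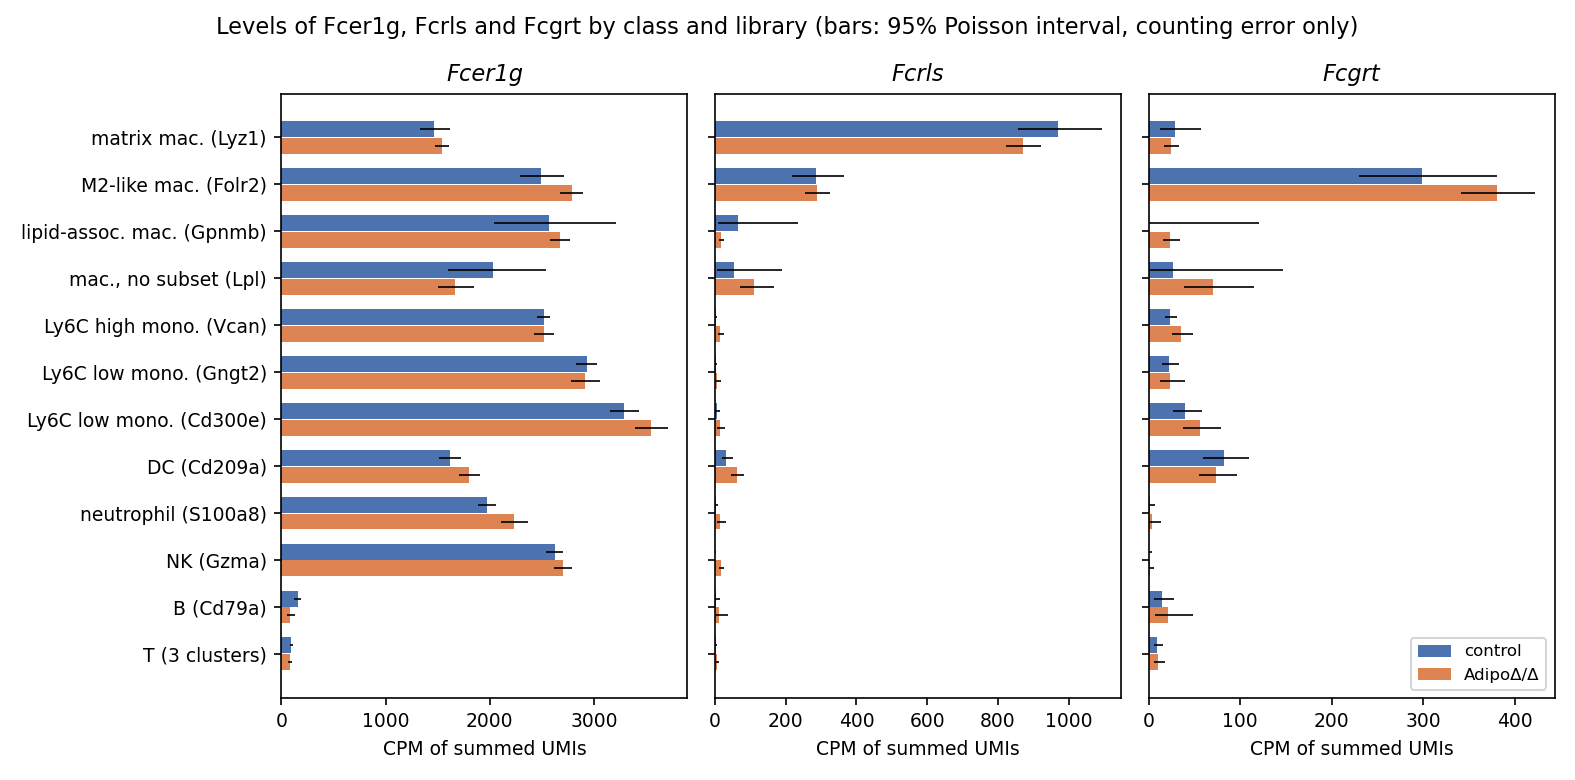
Levels of Fcer1g, Fcrls and Fcgrt in CPM of summed UMIs (x axis) by cluster or class (y axis), in control (blue) and AdipoΔ/Δ (orange) cells, with bars at the 95% Poisson interval. Fcer1g was broad, Fcrls was highest in matrix macrophage-like cells, at 970.2 and 871 CPM, and Fcgrt in M2-like macrophages, at 298 and 380.1 CPM.

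In the library sums, more macrophage-like cells and more transcript per cell cannot be told apart by level alone, so each library was also weighted to the same cluster shares. *Fcrls* had 34.9 CPM in control cells and 156 CPM in AdipoΔ/Δ cells (log2 ratio 2.16), and its log2 ratio was 0.10 at common shares. *Fcgrt* went from a log2 ratio of 1.23 to 0.42, *Fcgr2b* from 0.79 to 0.27 and *Fcgr3* from 0.48 to 0.27. *Fcgr1* went from 1.07 to 0.66 and *Fcgr4* from 0.33 to 0.36, while *Fcer1g* was at 0.02 in both. Of the 7 members *Fcgr1* thus kept the largest log2 ratio at common shares. The cells behind the *Fcgr1* UMIs differed as well, since 8.77% of them came from macrophage-like and 88.1% from monocyte-like cells in control, and 53.7% and 40.0% in AdipoΔ/Δ.

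**Figure D5:**
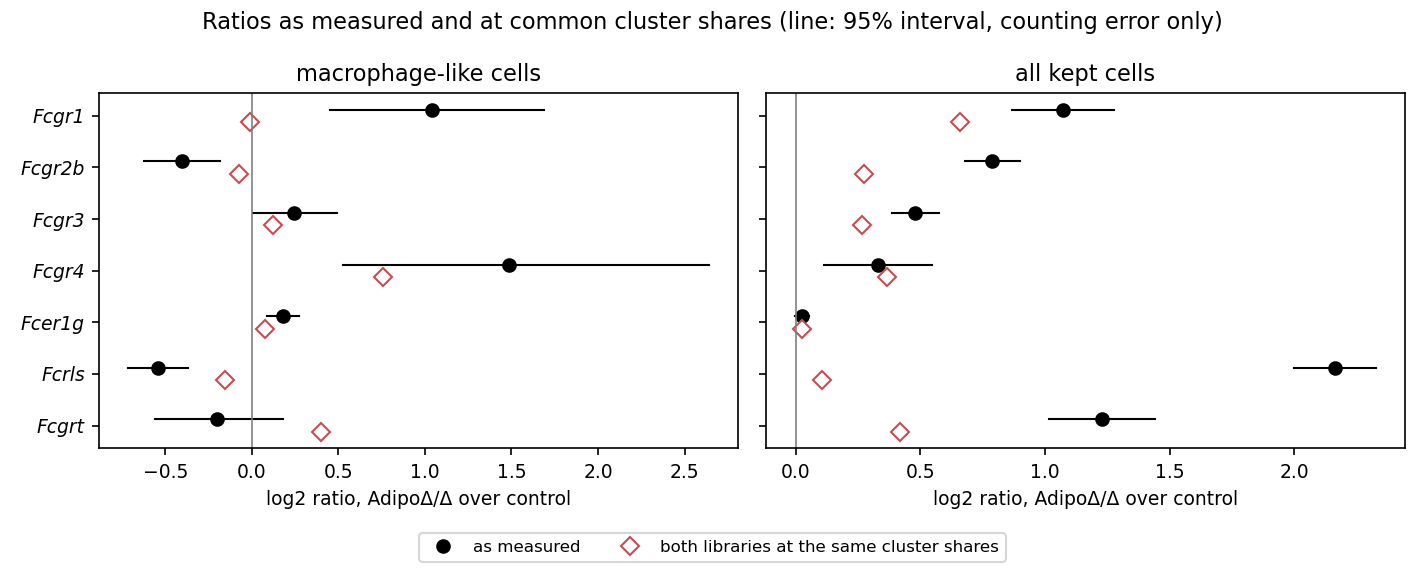
Log2 ratio of the AdipoΔ/Δ over the control level of all kept cells (x axis) for each member (y axis), as measured and with both libraries weighted to the same cluster shares. In all kept cells Fcrls moved from 2.16 to 0.10 and Fcgr1 from 1.07 to 0.66.

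*Fcgr1* and *Mertk*, which codes for the phagocytic receptor MerTK, are the surface pair used to gate macrophages by cytometry. At the RNA level both were too sparse after thinning to tell whether they go together. *Mertk* was sparse in both libraries, with 24.9 CPM in control and 21.9 CPM in AdipoΔ/Δ macrophage-like cells. After thinning to 1000 UMIs, 0 of 135 control and 0 of 444 AdipoΔ/Δ macrophage-like cells held a UMI of both, which allows shares up to 2.70% and 0.827% by the Clopper-Pearson interval. *Fcgr1* without *Mertk* was seen in 11 control and 15 AdipoΔ/Δ cells, and *Mertk* without *Fcgr1* in 3 and 10. With so few cells holding either, finding none with both does not show that the pair is apart. In matrix cells the sparse pair was *Fcgr1* at 0 and 2.18 CPM and *Mertk* at 14.5 and 10.9 CPM. *Itgam*, the CD11b gene, was at 478 and 517 CPM there, and at 257 and 332 CPM in M2-like cells. A transcript missing at this depth does not show that the protein is missing.

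Of a list of 44 genes around these receptors, 26 had at least 20 UMIs in macrophage-like cells. Of these, 6 were at least 1.5-fold higher in AdipoΔ/Δ cells and 0 lower (all genes 21.5% and 11.6%). The count of higher list genes was near the share over all genes. The median log2 ratio was 0.14 against 0.10 over all genes tested. The 4 with the largest ratios were *Clec4d* (3.38-fold, 33.7 and 114 CPM) and *Clec4n* (1.93-fold, 16.0 and 30.8 CPM), C-type lectins that signal with the gamma chain, and the inhibitory receptor *Lilrb4a* (2.00-fold, 128 and 255 CPM) and adaptor *Dok1* (1.68-fold, 23.1 and 38.9 CPM). By role, 2 of 4 receptors that pair with the gamma chain, 2 of 12 kinases and adaptors and 2 of 7 inhibitors were higher. Intervals of the ratio included 1 for *Clec4n* and *Dok1*. Lower list genes were found in the lipid-associated and *Lpl* clusters taken alone, which the class sum does not show. The list median log2 ratio was -0.46 in lipid-associated cells (all genes -0.17) and -0.14 in the *Lpl* cluster (0.16). It was 0.18 in M2-like cells (0.15) and 0.28 in matrix cells (0.17).

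In monocyte-like cells 26 of the 44 were tested, 5 were higher and 0 lower (all genes 11.1% and 4.26%), and the median log2 ratio was 0.04 against 0.10 over all genes. *Dok2*, an adaptor that dampens receptor signalling, had 5.5 and 45.5 CPM (23 and 103 UMIs, 8.28-fold, 5.23 to 13.6), and it was abundant in macrophage-like cells of both libraries, at 279 and 232 CPM. *Clec4n* had 7.17 and 57.0 CPM (7.95-fold, 5.31 to 12.3), *Blnk* 1.2 and 8.4 CPM (5 and 19 UMIs) and *Clec4d* 24.9 and 55.7 CPM (2.24-fold, 1.71 to 2.93). By role, 3 of 4 gamma-chain receptors were higher. *Tyrobp*, the adaptor most like *Fcer1g* in function, was at 3361 and 3197 CPM. Of the 12 kinases and adaptors that act below the receptors, *Blnk* alone was past the fold in the summed class. The *Gngt2* cluster differed from this sum, with 6 of 25 list genes higher and 5 lower (all genes 13.5% and 12.1%). The lower ones there were 4 kinases and adaptors and 1 inhibitor. Ly6C high cells had 2 of 25 higher and 1 lower (12.1% and 5.83%), and the *Cd300e* cluster 2 of 23 and 0 (14.6% and 6.39%).

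The ligands of these receptors were rare among the sorted cells. *Ighg1* had 1197 UMIs in control, of which 1189 lay in 1 plasma cell-like cell, and 0 UMIs in AdipoΔ/Δ. *Ighg2b* had 0 and 68 UMIs, of which 62 lay in 1 cell, *Ighg2c* had none in either library and *Ighg3* 3 and 1 UMIs.

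Genes whose levels ran most like a member over 28 points (clusters by library) are given as a description, since the points share libraries and depths. *Fcer1g* was most like *Tyrobp* (Pearson r = 0.93), *Fuca2* (0.87) and *Efhd2* (0.83). *Fcrls* was most like *Mras* (0.91), *Retnla* (0.91) and *Jup* (0.89), and *Fcgr2b* most like *Pld4* (0.91), *Nav1* (0.90) and *Prcp* (0.90). *Tyrobp* codes for the adaptor DAP12, and *Retnla* is on the matrix macrophage list. For *Fcgr1* the closest were *Tns3* (0.87), *Prxl2b* (0.87) and *Parp12* (0.84), for *Fcgr3* *Sdcbp* (0.92), *Reep3* (0.90) and *Hacd4* (0.90), and for *Fcgr4* *Mxi1* (0.83), *Mdm1* (0.82) and *Phyh* (0.82). *Rnf150* (0.85) and *Lifr* (0.84) were among the genes most like *Fcgrt*. Among the members themselves the highest r was that of *Fcgr2b* with *Fcgrt* (0.82) and the lowest that of *Fcgr4* with *Fcrls* (0.01).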

How the data were processed

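Cells were sorted from BAT as CD45+ DAPI- and captured with 10x Genomics 3′ v3.1 chemistry. Cell Ranger 4.0.0 (per the file headers) was used by the authors with mm10, and the deposited counts are whole UMIs that were not normalized. A barcode was kept as a cell with 200 or more genes and no more than 10% of its UMIs from mitochondrial genes (2279 of 2597 control and 2016 of 2381 AdipoΔ/Δ barcodes). The 2% limit of the methods would keep 1306 and 889. Scrublet (Scanpy 1.11.5) called 8 and 6 doublets, too few to have worked, and none was removed. Libraries were normalized with sctransform 0.4.2 and integrated in Seurat 5.3.0 under R 4.3.3, with members and the Fc list left out (1973 of 2000 features kept). With 20 components and a resolution of 1.0 this gave 18 clusters, of which 2 stayed unnamed, and the naming thresholds were set after seeing the data. Subset names are therefore rebuilt and may differ from those of the study.

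UMIs were summed per cluster and library and given as CPM, with exact Poisson intervals for levels, Clopper-Pearson intervals for shares and conditional binomial intervals for ratios (SciPy 1.17.1, tested on simulated data). A floor for 0 UMIs is 3 UMIs. Thinning was to 1000 UMIs per cell, leaving out 199 and 259 shallower cells. Likeness used log2(CPM + 10) and genes with at least 100 UMIs. The members and lists were chosen with earlier results of these data known. Named genes were the 7 members, *Mertk*, *Itgam*, *Pnpla2*, *Tyrobp*, *B2m* and ligand genes, up to 4 list genes per direction with the largest ratios, and the 3 genes with the highest r per member, of which 1 is not reported here. Promoter windows came from RefSeq (GRCm38.p6). Alternatives covered cell filters, clustering, normalization and depth.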

Additional observations from a re-analysis of the deposited data

Results flagged for a closer look

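*Fcgr2b* differed between libraries in opposite directions in 2 classes, with a log2 ratio of AdipoΔ/Δ over control of 0.64 in monocyte-like and -0.40 in macrophage-like cells. *Fcrls* did the same, at 2.57 in monocyte-like cells, where it rests on 9 and 29 UMIs, and -0.54 in macrophage-like cells. With 1 library per group, neither difference between the classes was tested. At equal shares of the macrophage-like clusters the log2 ratios in that class were -0.0737 for *Fcgr2b* and -0.15 for *Fcrls*.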

How the results depend on the processing

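No paired analysis was possible because each group has 1 library. For the same reason no library could be left out. In monocyte-like cells the log2 ratio of each member kept its direction under all 14 alternatives, with *Fcgr1* between 0.55 and 1.04. Values outside the counting interval were those of *Fcrls* at a mitochondrial limit of 2% (0.80), *Fcgr2b* (0.95) and *Fcer1g* (0.11) after thinning, *Fcgr1* (0.55) and *Fcer1g* (0.11) as a mean over cells, and *Fcgr4* at equal monocyte cluster shares (0.32). The alternatives for monocyte-like cells, equal monocyte shares included, and leaving out the *Lpl* cluster were chosen after seeing the data. In macrophage-like cells 91 of 105 alternative log2 ratios stayed within the interval, and 3 whose interval lay off 0 reversed: *Fcgr1* after thinning (-0.23) and at equal cluster shares (-0.0103), and *Fcer1g* as a mean over cells (-0.10). *Fcgrt*, whose own interval includes 0, changed sign as well, from -0.20 to 0.15 after thinning, 0.36 as a mean over cells and 0.40 at equal shares. *Fcgr1* also moved to 2.20 at the 2% limit, where 48 control and 121 AdipoΔ/Δ macrophage-like cells remained, and to 0.38 as a mean over cells. Equal shares gave -0.0737 for *Fcgr2b*, 0.0767 for *Fcer1g*, and -0.15 for *Fcrls*, and thinning gave 0.00716 for *Fcer1g* and -0.25 for *Fcrls*. The mean over cells gave -0.23 for *Fcrls*, and the 2% limit -0.78 for *Fcgrt*. Taken cluster by cluster, the *Fcgr2b* share of Fcgr UMIs was 18.5% in control lipid-associated cells, and in AdipoΔ/Δ cells 50.3% (matrix), 42.8% (M2-like), 43.2% (*Lpl* cluster) and 11.6% (lipid-associated). Whole-library log2 ratios at common shares were 0.66 (*Fcgr1*), 0.27 (*Fcgr2b*), 0.27 (*Fcgr3*), 0.10 (*Fcrls*) and 0.42 (*Fcgrt*). At a fold of 2, 1 list gene instead of 6 was higher in macrophage-like cells. Of 1274 alternative levels 1058 stayed within the interval. Thinning moved 80 of 98 shares of cells, as fewer UMIs show fewer cells. The causes of the other moves were not tested. The 13 control lipid-associated cells limit what could be detected in that cluster.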
